A study of Mus musculus with 19 samples.

Results

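Replication licensing loads the MCM helicase onto DNA, and 10 genes of that step were followed in single mouse blastocysts: Mcm2 to Mcm7, Mcm10, Cdc6, Cdt1 and Gmnn. They were chosen by symbol, with earlier results of these data known, and all 10 of 10 are among the 14173 genes of the deposited table. Polyadenylated RNA was measured with 1 library per embryo in 10 Control and 9 Padi6-mutant blastocysts, the stage with an inner cell mass and an outer trophectoderm. The series' design text places the mutation, Padi6P620A, in the oocytes from which the mutant embryos came. The product of Padi6 is stored in the cytoplasm of the oocyte and lasts into cleavage. The labels give the genotype of each group, and the strain, the sires, the embryos' own genotype, their age in days and their litters are not given in the sources used here. Each embryo was taken as 1 replicate, and shared litters, if there were any, would make the p-values too low.

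Licensing takes place when cyclin-dependent kinase activity is low. The origin recognition complex marks origins, Cdc6 joins it, and Cdt1 brings the ring of 6 subunits, Mcm2 to Mcm7, which is closed around the DNA as an inactive double hexamer. In S phase further factors, Mcm10 among them, turn the ring into a working helicase, and geminin, the product of Gmnn, binds Cdt1 so that no origin is loaded again in the same cycle. In the mouse blastocyst geminin is known as a factor that keeps cells in mitotic cycles. Trophoblast giant cells, in contrast, copy their genome repeatedly without dividing. Most of these genes are classical targets of E2F, the family of transcription factors that opens S phase.

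That family binds variants of the words TTTCGCGC and TTTGGCGC. The sequences that carry them are shown because the MCM genes and their loaders tended to move together across the Control embryos. Whether the words bear on that movement was not tested. RefSeq promoter windows (250 bases before to 50 after an annotated start, GRCm38.p6, an older build than the GRCm39 named by the submitters) were found for 8 of the 10 genes, all but Mcm4 and Gmnn. Of the 8, 5 held at least 1 of the words on either strand: Mcm3, Mcm5, Mcm6, Mcm7 and Cdt1. Mcm2, Mcm10 and Cdc6, which moved with the others in Control embryos, held neither. Among the 9575 genes of the table with a window, 187 (1.95%) did. The words of Mcm5 and the upstream pair of Mcm6 overlap on opposite strands and form 1 longer run. The stretches below are read on the strand of the gene, with the words in capitals. In Cdt1, Mcm3 and Mcm7 the word lies just after the annotated start.
Mcm5 (chr8:75109322-75109401, plus strand): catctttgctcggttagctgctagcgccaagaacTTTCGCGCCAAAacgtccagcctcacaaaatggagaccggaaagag
Mcm6 (chr1:128359741-128359820, minus strand): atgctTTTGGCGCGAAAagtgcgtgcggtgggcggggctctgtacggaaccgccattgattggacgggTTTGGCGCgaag
Cdt1 (chr8:122568039-122568062, plus strand): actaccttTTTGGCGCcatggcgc
Mcm3 (chr1:20820263-20820282, minus strand): tgggaagtTTTGGCGCcaag
Mcm7 (chr5:138171852-138171875, minus strand): tgacgacgTTTCGCGCcaatttcg
The word CCAAT, which overlaps the end of the printed word in Mcm7, was in 6 of the 8 genes and in 43.6% of the genes of the table. A match is a description of letters, and no match says only that these letters are not in the window.

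Values are log2(scaled count + 1) unless said otherwise, and scaling set the upper quartile of all libraries equal. Padi6 itself ran from 3.81 to 9.24 in Control and from 2.00 to 9.27 in Padi6-mutant libraries, a log2 fold change of -0.04 (SE 0.78, limma adjusted p = 0.976), so it does not check the labels. The blastocyst markers Pou5f1, Nanog, Gata6, Cdx2, Gata3 and Krt8 were above 0 in all 19 libraries. Genes at 0 numbered 30 to 247 in Control and 113 to 596 in Padi6-mutant libraries, with over 400 in Padi6-mutant 6, 8, 9 and 10. In the 13 libraries whose read step could be told, the lowest of the 10 genes stood on 510 to 4537 reads. Those totals exceed the depth in the labels, a difference not resolved, and amplified reads are not independent molecules, so the counts give no counting error. Cell type markers also moved with the genotype: 7 of 10 fell for the primitive endoderm, 3 of 9 for the inner cell mass and 1 of 10 for the trophectoderm, where 2 rose, with list medians of -1.41, -0.79 and -0.11. Of all genes 12.0% fell and 14.6% rose. The counts depend on the fit. For the primitive endoderm 3 fell with the trend of each library on transcript length and GC content removed, 4 without Padi6-mutant 6, 8, 9 and 10, and 1 with the count of genes above 0 in the model. For the inner cell mass these counts were 2, 2 and 1, and for the trophectoderm 0, 2 and 1 rose and 1, 0 and 0 fell. In these fits, in the same order, 10.3%, 6.64% and 3.52% of the genes tested fell. Those that rose numbered 1456 of 13617, 1681 of 14173 and 1308 of 14173. The mean level of the inner cell mass list ran from 11.3 to 12.2 in Control and from 8.44 to 11.9 in Padi6-mutant embryos, that of the primitive endoderm list from 9.36 to 12.6 and from 7.59 to 11.5, and that of the trophectoderm list from 13.4 to 14.1 and from 12.5 to 14.5. In these whole-embryo libraries fewer cells of a type and less RNA per cell cannot be told apart, and the part of cell composition in the results was not tested. Of the other marker lists 1 gene each was measured for giant cells (Plac1, 1.85, adjusted p = 0.0175, or 1.02, adjusted p = 0.238 with the trend removed) and for cumulus and granulosa cells (Star, -0.36, adjusted p = 0.645), and of 7 oocyte markers listed 0 were analysed here.

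Of the 10 licensing genes, 5 fell in Padi6-mutant embryos at a limma adjusted p under 0.05 and 0 rose: Mcm3, Mcm4, Mcm6, Mcm10 and Cdc6. Among all 14173 genes 26.6% changed, 12.0% falling and 14.6% rising. All 10 passed an unadjusted p of 0.05, as did 5460 of all genes. The median log2 fold change of the 10 was -0.61, beside -0.10 over all genes. Because the 10 were chosen with earlier results of these data known, these contrasts with all genes are only a description. Levels were lower on average in Padi6-mutant embryos for 9 of the 10 and higher for Gmnn, and the groups overlapped for each of the 10.

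**Figure D1:**
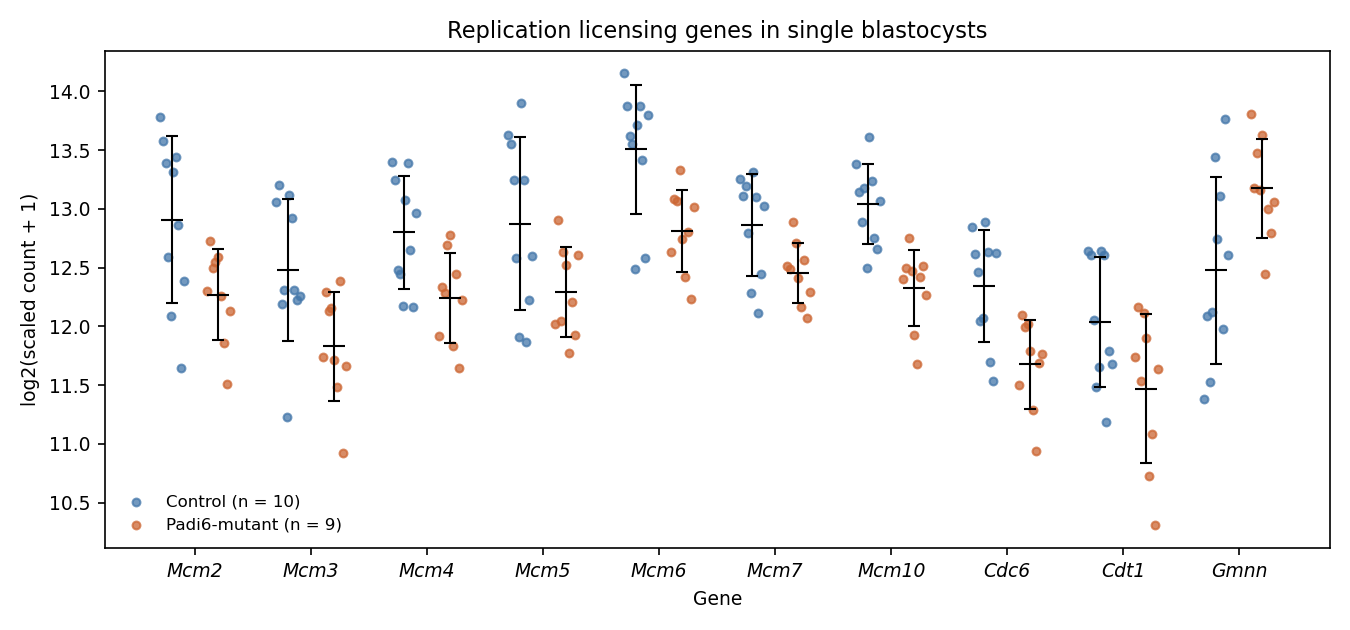
Each point is 1 embryo, with log2(scaled count + 1) on the y axis and the 10 genes on the x axis. Black marks are the mean ± SD of 10 Control and 9 Padi6-mutant embryos. For Mcm10, 7 of 9 Padi6-mutant embryos lie below every Control embryo, while for Gmnn 5 Control embryos lie below every Padi6-mutant embryo.

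Among the helicase subunits, Mcm6 had the largest difference in this fit. Its values ran from 12.5 through a median of 13.7 to 14.2 in Control and from 12.2 through 12.8 to 13.3 in Padi6-mutant embryos. Of the 10 Control embryos 8 lay above every Padi6-mutant embryo, and the other two, Control 5 (12.49) and Control 9 (12.59), lay among the mutants. Mcm6 fell by 0.69 (SE 0.21, adjusted p = 0.0157), a change of -38.1%. Mcm3 ran from 11.2 through 12.3 to 13.2 in Control and from 10.9 through 11.7 to 12.4 in Padi6-mutant embryos, and it fell by 0.65 (SE 0.23, adjusted p = 0.0429). Mcm4 ran from 12.2 through 12.8 to 13.4 in Control and from 11.6 through 12.3 to 12.8 in Padi6-mutant embryos, and it fell by 0.56 (SE 0.20, adjusted p = 0.0374). For both genes 4 or more Control embryos lay above all mutants, and 8 of 9 Padi6-mutant embryos for Mcm3 and 9 of 9 for Mcm4 lay below the Control median. The calls of Mcm3 and Mcm4 were close to the threshold. That of Mcm3 ended without any 1 of Control 1, 2, 6 or 7 or Padi6-mutant 2, 6, 7, 9 or 10 (-0.64 to -0.54, adjusted p = 0.0606 to 0.0850). That of Mcm4 ended without any 1 of Control 1, 2, 6, 7 or 10 or Padi6-mutant 2, 4, 7, 9 or 10 (-0.57 to -0.49, adjusted p = 0.0504 to 0.0736).

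The other three subunits did not pass. Mcm2, the subunit that also binds histones, ran from 11.6 through 13.1 to 13.8 in Control and from 11.5 through 12.3 to 12.7 in Padi6-mutant embryos (log2 fold change -0.64, SE 0.25, adjusted p = 0.0595). Mcm5 ran from 11.9 through 12.9 to 13.9 in Control and from 11.8 through 12.2 to 12.9 in Padi6-mutant embryos (-0.58, SE 0.25, adjusted p = 0.0907). Mcm7 ran from 12.1 through 13.1 to 13.3 in Control and from 12.1 through 12.5 to 12.9 in Padi6-mutant embryos (-0.41, SE 0.17, adjusted p = 0.0791). For each of the 3, 9 of 9 Padi6-mutant embryos lay below the Control median, and 5 or 6 Control embryos lay above every mutant. The Control SD was 0.71 for Mcm2 and 0.74 for Mcm5, but 0.43 for Mcm7, the lowest of the 6 subunits. Over the 6 subunits the SD was 0.43 to 0.74 in Control and 0.26 to 0.46 in Padi6-mutant embryos, smaller in the mutants for 6 of 6. The share of all genes with a smaller SD in the mutants was not computed, so this is not read as particular to the subunits. Mcm2 passed without Control 5, 9 or 10 (-0.78 to -0.70, adjusted p = 0.0109 to 0.0488), Mcm5 without Control 5 or 8 (-0.70 to -0.69, adjusted p = 0.0381 to 0.0403) and Mcm7 without Control 5, 8 or 9 (-0.49 to -0.45, adjusted p = 0.0284 to 0.0490). Exons of Mcm7 overlap those of Ap4m1 and Cops6 on the opposite strand and of Mir25 and Mir93 on its own, by at most 321 of 4426 exonic bases, and without strand in the library such reads cannot be told apart.

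Mcm10, which acts after loading, in the firing of the helicase, had the smallest adjusted p of the 10. Its values ran from 12.5 through 13.1 to 13.6 in Control and from 11.7 through 12.4 to 12.8 in Padi6-mutant embryos. The groups barely overlapped: 7 of 9 Padi6-mutant embryos lay below every Control embryo, and 8 of 10 Control embryos lay above every mutant. Mcm10 fell by 0.72 (SE 0.16, adjusted p = 0.00221), a change of -39.1%. It was the only one of the 10 that stayed past the threshold in each of the 12 alternative fits and without each of the 19 libraries in turn.

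The loaders differed in how far the groups overlapped. Cdc6, the ATPase that with the origin recognition complex receives the ring, ran from 11.5 through 12.5 to 12.9 in Control and from 10.9 through 11.8 to 12.1 in Padi6-mutant embryos. In it 3 mutants lay below every Control embryo and 6 Control embryos above every mutant, and it fell by 0.67 (SE 0.20, adjusted p = 0.0146). Cdt1, which carries the ring to the origin, ran from 11.2 through 11.9 to 12.6 in Control and from 10.3 through 11.6 to 12.2 in Padi6-mutant embryos. Padi6-mutant 7, 8 and 9 lay below every Control embryo while the other mutants lay within the Control range, and Cdt1 did not pass (-0.57, SE 0.25, adjusted p = 0.101).

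Gmnn, the inhibitor, had higher values in Padi6-mutant embryos without passing the test. It ran from 11.4 through 12.4 to 13.8 in Control and from 12.4 through 13.2 to 13.8 in Padi6-mutant embryos (log2 fold change 0.70, SE 0.27, adjusted p = 0.0602). All 9 mutants lay above the Control median, 5 Control embryos lay below every mutant, and the other five lay among the mutants, with Control 9 (13.76), Control 5 (13.44) and Control 7 (13.11) the highest. It passed without Control 5, 7 or 9 or without Padi6-mutant 7 (0.77 to 0.84, adjusted p = 0.0140 to 0.0473). Its sign turned when the trend of each library on transcript length and GC content was removed (-0.22, adjusted p = 0.303), so no direction is read from it.

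That removal bears on the whole set, since short transcripts were higher and long ones lower in Padi6-mutant libraries. The main transcript of Gmnn has 963 nt, and those of the other nine have 2189 (Cdt1) to 3589 (Mcm4). With the trend removed 10 of 10 values were below 0, with a median of -0.31 beside -0.07 over all genes. Of the 10, 3 still fell, beside 10.3% of the 13617 genes with a length: Cdc6 (-0.55, adjusted p = 0.0358), Mcm6 (-0.54, adjusted p = 0.0440) and Mcm10 (-0.49, adjusted p = 0.0179). With the longest transcript of each gene in place of the main one, Mcm10 alone passed (-0.54, adjusted p = 0.0257). Mcm10 was again the only one to pass (-0.68, adjusted p = 0.0246) once Padi6-mutant 6, 8, 9 and 10 were left out, beside 6.64% of all genes lower. The same held when the count of genes above 0 in each library entered the model (-0.61, adjusted p = 0.0454), beside 3.52% of all genes lower. Without Padi6-mutant 6, 8, 9 and 10, 5 mutants were left, and the SE was larger for all 10 genes. There the log2 fold change grew in size for Mcm4 (-0.56 to -0.59), Mcm5 (-0.58 to -0.60) and Gmnn (0.70 to 0.74). It shrank for the others. A call lost in that fit does not show that the difference was gone. In the other alternatives whose counts of members are given in the closing section, the share of all genes that fell was 10.4% with the longest transcript, 11.4% by an exact permutation test, 13.7% under quantile normalization and 6.96% with a block on replicate numbers. The share that changed was 37.7% with library weights, and the share that rose was 17.5% among genes above the median level.

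**Figure D2:**
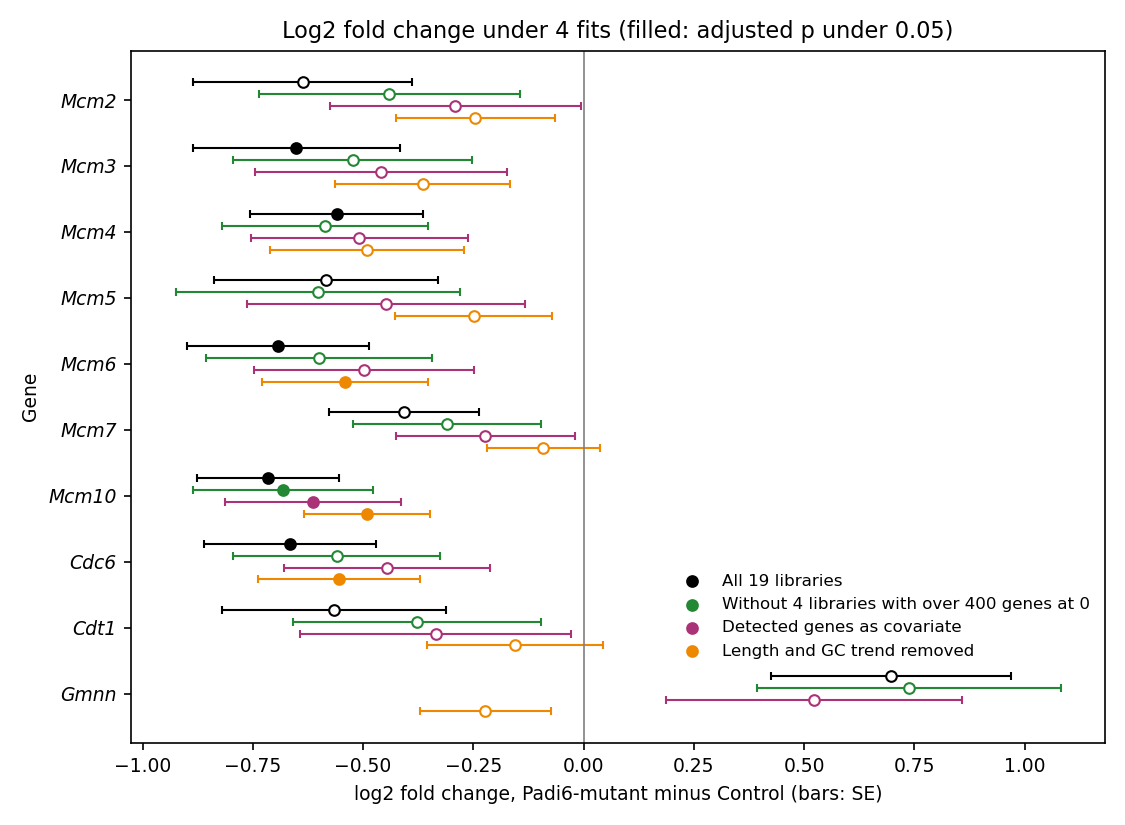
Log2 fold change (x axis, Padi6-mutant minus Control, bars are SE) of each gene (y axis) in the fit on 19 libraries and in 3 alternatives, filled where the adjusted p is under 0.05. Mcm10 is filled in all 4, and Gmnn moves from 0.70 to -0.22 when the length and GC trend is removed.

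The slope of a library on length was taken as the Spearman's rho, across genes, of transcript length with the library's deviation from the gene means, a measure chosen after values were seen. It ran from -0.12 to 0.40 in Control and from -0.42 to -0.09 in Padi6-mutant libraries. Within the Control group Gmnn followed it closely (Pearson's r = -0.93, permutation p = 1.2e-04, adjusted over 20 relations p = 0.00240; Spearman's rho = -0.92, permutation p = 4.9e-04, adjusted p = 0.00980; n = 10). Without the 2 embryos farthest from the median slope r was -0.86. The slope is built from transcript length, so a short transcript such as that of Gmnn tends to run against it. How many transcripts as short do so was not computed, and the relation is not read as particular to Gmnn. Control 5 and Control 9, with the slopes nearest to those of the mutants (-0.12 and -0.11), were also the Control embryos with the highest Gmnn and the lowest Mcm6. Within the Padi6-mutant group r for Gmnn was -0.56 (exact permutation p = 0.119, adjusted p = 0.208; rho = -0.62, exact permutation p = 0.0857, adjusted p = 0.213; n = 9), or -0.63 without the 2 farthest. For the MCM genes, Cdc6 and Cdt1 no relation to the slope passed after adjustment in either group (lowest adjusted p = 0.0589, exact permutation, for Mcm2 and Cdt1 in Padi6-mutant embryos). For Mcm2 to Mcm7 r was 0.28 to 0.76 within Control and -0.81 to -0.55 within Padi6-mutant embryos. The Control values rest on Control 5 and 9, the 2 farthest from the median slope, without which r was -0.45 to -0.04. The part of the length slope in the differences between the groups was not tested beyond the removal of the trend.

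**Figure D3:**
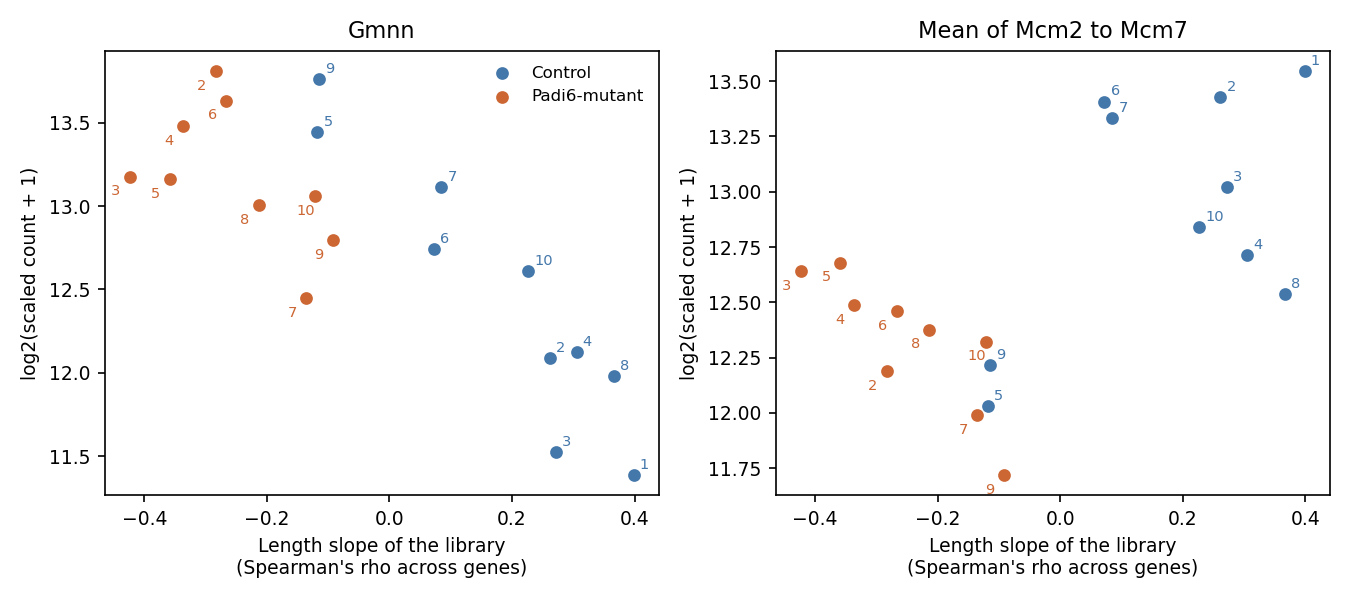
Each point is 1 embryo, numbered as in the labels, with the length slope of its library (Spearman's rho across genes) on the x axis and log2(scaled count + 1) on the y axis, for Gmnn on the left and the mean of Mcm2 to Mcm7 on the right. Gmnn falls with the slope among Control embryos, and Control 5 and 9 have slopes within the range of the Padi6-mutant libraries.

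Levels per length, as log2 of the scaled count per kb of the main transcript, put Gmnn first in both groups. In Control embryos Gmnn stood at 12.5 ± 0.80 (SD, n = 10), followed by Mcm6 at 11.97 ± 0.55, Mcm5 at 11.5 ± 0.74, Mcm7, Mcm10, Mcm2, Cdc6, Mcm4, Cdt1 and, last, Mcm3 at 10.9 ± 0.60. No neighbours in that order differed by more than the larger of their SDs. In Padi6-mutant embryos the order began the same way, from Gmnn to Mcm10, with Gmnn at 13.2 ± 0.42 (SD, n = 9) and Mcm6 at 11.3 ± 0.35, a gap of 1.96 that is larger than either SD. The gap between Mcm7 (10.9 ± 0.26) and Mcm10 (10.5 ± 0.33) was so too, and no other. The level per kb of Cdt1 minus that of Gmnn, in log2 units, ran from -3.16 through a median of -1.76 to 0.07 in Control and from -3.67 through -2.92 to -2.20 in Padi6-mutant embryos. Control 1 was the only one with as much Cdt1 as Gmnn per kb, and Control 5 and 9 again lay among the mutants. The length slope of each library enters these levels, since Gmnn has the shortest transcript. With the length and GC trend removed the log2 fold changes were -0.16 for Cdt1 (limma adjusted p = 0.622) and -0.22 for Gmnn (adjusted p = 0.303). No difference between the groups is therefore read from the level of Gmnn against that of the other genes. Within an embryo the highest and the lowest of Mcm2 to Mcm7 lay 0.76 to 1.55 log2 units apart (scaled counts, not per kb).

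The genes varied together from embryo to embryo in the Control group. Over the 15 pairs among Mcm2 to Mcm7, r ran from 0.69 to 0.94 with a median of 0.79 (n = 10), and 12 pairs passed a permutation test adjusted over 90 relations (45 pairs in each group), or 6 by Spearman's rho. Without the 2 embryos farthest from the median of the first gene of a pair the median r was 0.69 and none was below 0.48. Mcm10, Cdc6 and Cdt1 joined them: over the 36 pairs without Gmnn the median r was 0.79, and 28 passed, or 17 by Spearman's rho. The median r over all pairs of genes of the table was -0.0010. The share of all gene pairs that would pass was not computed. The counts of passing pairs, here and in Padi6-mutant embryos, are therefore not read as particular to the licensing genes. In Padi6-mutant embryos (n = 9) the 15 pairs of subunits had a median r of 0.67 and ran from 0.26 to 0.81, with 3 passing, or 1 by Spearman's rho. Over the 36 pairs without Gmnn r fell to -0.07 at its lowest, with 6 passing, or 3 by Spearman's rho. The lowest 2 of these 36 pairs were Mcm10 with Mcm2 (-0.07) and Mcm10 with Mcm4 (0.03). These low values rest on few embryos: without the 2 farthest, r was 0.33 for Mcm10 with Mcm2 and 0.60 with Mcm4, and -0.56 for Mcm10 with Mcm5 (0.17 with all 9). Over the 15 pairs of subunits r then ran from 0.08 to 0.87. These pairs share libraries, so depth and length slope enter both members of a pair.

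**Figure D4:**
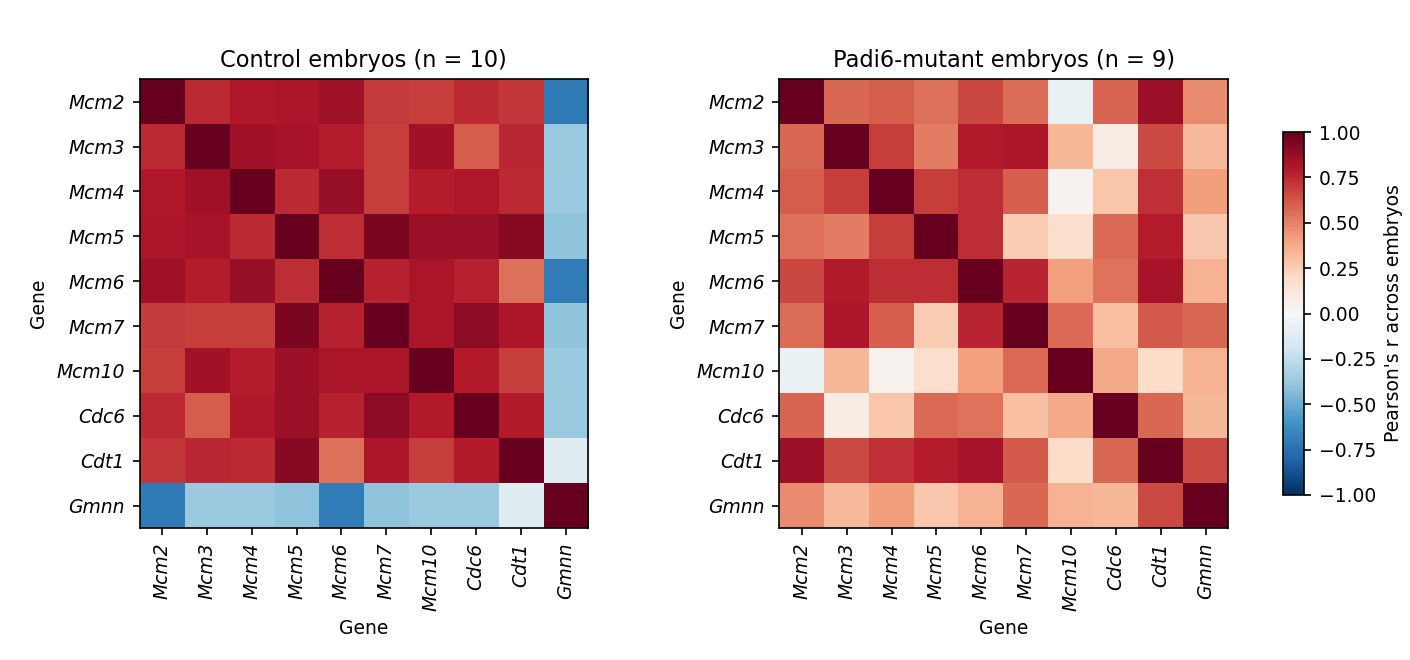
Pearson's r across embryos for each pair of genes (both axes), for 10 Control embryos on the left and 9 Padi6-mutant embryos on the right. Red is positive and blue negative. Over all embryos of a group, Gmnn has r of -0.70 to -0.12 with the other nine genes in Control and of 0.27 to 0.66 in Padi6-mutant embryos. None of these pairs passed, and 3 of them change sign without 2 embryos.

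With the other 9 genes the r of Gmnn lay between -0.70 and -0.12 in Control and between 0.27 and 0.66 in Padi6-mutant embryos, and none of the pairs passed in either group. The Control values lie below those of the 36 other pairs, and the Padi6-mutant values lie within the range of the other pairs. Without the 2 embryos farthest from the median of the first gene of a pair, signs turned for Mcm4 in Control (0.31) and for Mcm5 (-0.03) and Cdc6 (-0.28) in Padi6-mutant embryos. For Cdt1 with Gmnn r was -0.12 in Control (permutation p = 0.728; rho = -0.07, p = 0.864; n = 10), or -0.36 without the 2 embryos farthest from the Cdt1 median. In Padi6-mutant embryos it was 0.66 (exact permutation p = 0.0551, adjusted over the 2 groups p = 0.110; rho = 0.67, exact permutation p = 0.0589, adjusted p = 0.118; n = 9). That value rests on the 2 embryos farthest from the Cdt1 median, without which r was 0.20. The difference between the groups was not tested.

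The genes most like the MCM subunits were sought among 6860 named genes with a mean above the median, by the Pearson's r of deviations from the group means over 19 embryos, given as a description. For the mean of Mcm2 to Mcm7 these were Slc11a2 (0.92), an iron transporter, the kinase Mapk7 (0.92), the segregase Vcp (0.90), Pgd (0.90), an enzyme of the pentose phosphate pathway, and Tmx2 (0.90), with transcripts of 1977 to 3316 nt. Of these Mapk7 (-1.44), Vcp (-1.13) and Pgd (-1.27) fell, with adjusted p of 0.00348, 0.00144 and 0.00194. For Gmnn they were the prolyl isomerase Ppia (0.96), Hacd2 (0.96), Gabarapl2 (0.96), Naca (0.95) and Srp14 (0.95), and all 5 rose (log2 fold change 0.69 to 1.73, adjusted p of 3.59e-04 for Srp14 to 0.0273 for Hacd2). Apart from Hacd2 (3598 nt) their transcripts have 798 to 1677 nt. The calls of the genes named for both patterns are from the main limma fit. Whether they hold with the length and GC trend removed is not shown here.

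Other genes of replication and the cell cycle were followed by lists, whose difference from the licensing genes was not tested. Of the 7 genes of the origin recognition complex, which the ring is loaded by, 1 rose and 0 fell, with a median of 0.03. The gene that rose was Orc6 (0.72, adjusted p = 0.0202), at 0.23 (adjusted p = 0.294) with the trend removed. Of Mcm8, Mcm9, Mcmdc2 and Mcmbp, the other MCM family members and a binding protein that handles free MCM complexes, 0 passed (median 0.13). With an adjusted p, limma called 0 of these 4, and 0 of the 4 passed an unadjusted p of 0.05.

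Of 14 factors that fire the loaded helicase, 2 fell and 1 rose (median -0.29). Ticrr, which kinases target to recruit Cdc45, fell by 0.59 (adjusted p = 0.00201), and Recql4, a helicase-like factor of initiation, fell by 1.64 (adjusted p = 0.00234), while Gins1, a subunit of the GINS complex, rose by 0.98 (adjusted p = 0.00292). With the trend removed Recql4 passed (-1.17, adjusted p = 0.0269) and Ticrr (-0.29, adjusted p = 0.0931) and Gins1 (0.26, adjusted p = 0.164) did not. With the count of genes above 0 in the model Ticrr passed (adjusted p = 0.0401) and Recql4 (adjusted p = 0.0825) and Gins1 (adjusted p = 0.0753) did not. Of 13 genes listed around the removal of Cdt1 and geminin, 3 rose and 2 fell (median -0.27), or 3 and 3 with the trend removed. Not all of the 13 act in that removal, Cdca3 and Fbxo5 among them, so the counts do not describe the removal itself. The 3 that rose were Rbx1 (2.24, adjusted p = 1.54e-06), the RING subunit of cullin ligases, Cdca3 (0.72, adjusted p = 0.00625) and Skp1 (1.02, adjusted p = 0.0127), and of those that fell Skp2 (-0.72, adjusted p = 0.0210) targets Cdt1 and Ddb1 (-0.59, adjusted p = 0.0230) links Cul4 to its substrates. Skp2 and Ddb1 were named after their values were seen. Ddb1 did not pass with the trend removed (-0.27, adjusted p = 0.168), and Skp1, Skp2 and Ddb1 did not with the count of genes above 0 in the model (adjusted p = 0.169, 0.0645 and 0.157).

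Of 25 genes of the replication fork 8 rose and 3 fell (median -0.05). The small subunits Rpa3 (2.55, adjusted p = 1.29e-05) of the single-strand binding protein and Pole4 (1.33, adjusted p = 1.03e-04) of polymerase epsilon rose, and Rfc5 (-0.73, adjusted p = 0.00233) of the clamp loader fell. With the trend removed 4 rose and 2 fell. Of 13 E2F and pocket protein genes 2 fell and 1 rose (median -0.13): Tfdp1, the partner with which E2F proteins bind DNA, fell by 0.89 (adjusted p = 1.42e-04) and E2f4 fell by 1.42 (adjusted p = 0.00225), while Tfdp2 rose by 0.68 (adjusted p = 0.0139). All 3 also passed with the trend removed, and E2f4 did not with the count of genes above 0 in the model (adjusted p = 0.131). Of 14 S phase markers 3 rose and 1 fell (median -0.01), led by Chaf1a (-1.55, adjusted p = 6.00e-04), a subunit of the chromatin assembly factor, Tyms (0.70, adjusted p = 0.00282), thymidylate synthase, and Ccne2 (0.90, adjusted p = 0.0140), a cyclin of S phase entry. With the count of genes above 0 in the model Chaf1a (adjusted p = 0.0531) and Ccne2 (adjusted p = 0.173) did not pass. Of 18 G2 and M phase markers 2 rose and 0 fell (median -0.07), Ube2c (0.96, adjusted p = 0.0110) and Birc5 (0.75, adjusted p = 0.0300), at 0.22 (adjusted p = 0.452) and -0.02 (adjusted p = 0.944) with the trend removed. With Padi6-mutant 6, 8, 9 and 10 left out, Orc6, Skp1, Ccne2 and Birc5 of the genes named from these lists did not pass (adjusted p = 0.142, 0.0529, 0.137 and 0.0595).

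**Figure D5:**
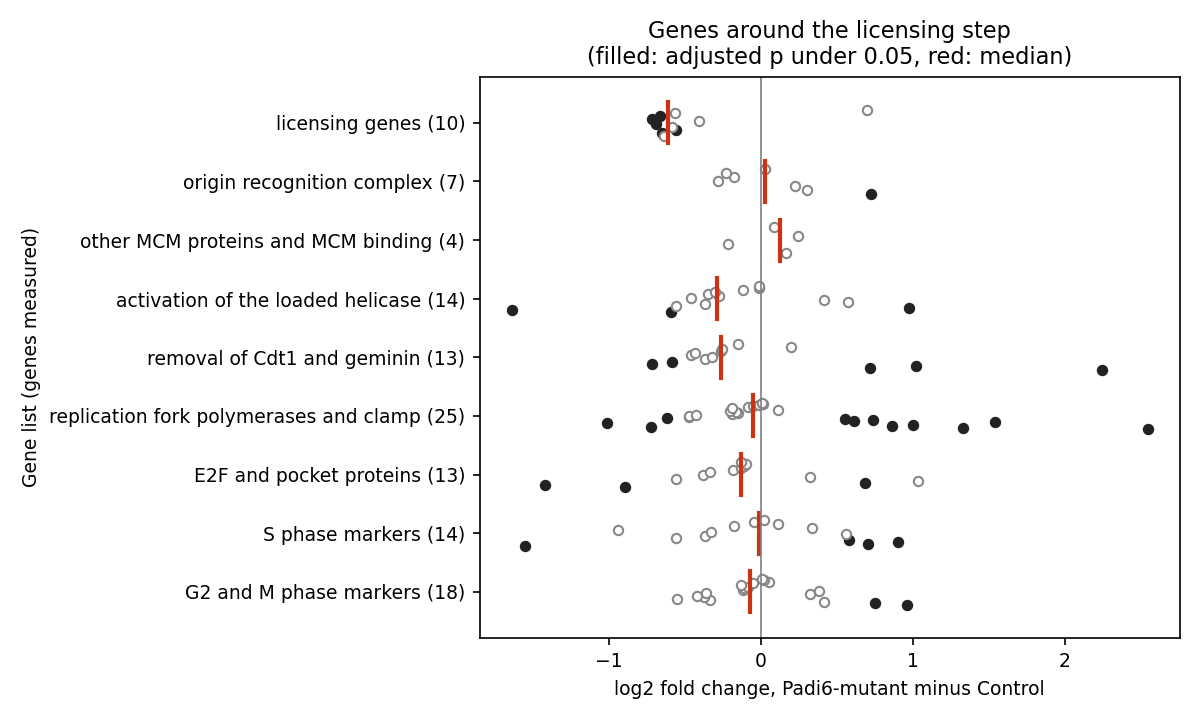
Each point is 1 gene with its log2 fold change (x axis, Padi6-mutant minus Control), by list (y axis, number measured in brackets), filled where the adjusted p is under 0.05. Red bars are list medians, at -0.61 for the licensing genes and between -0.29 and 0.13 for the other replication and cell cycle lists drawn. Lists of cell type markers are not drawn.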

How the data were processed

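RNA of single blastocysts was captured on oligo-dT beads, copied by template switching and sequenced from Nextera XT libraries, per the labels' protocols. The submitters' processing notes name Trim Galore 0.4.4, a read trimmer, and the aligner HISAT2 2.1.0. The counting tool and annotation are not given in the sources used here. The authors deposited log2(scaled count + 1) values, and the values show 1 scaling factor per library that sets the upper quartile equal.

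Groups were compared with limma 3.58.1 (trend, two-sided, R 4.3.3) on the log2 values of 14173 genes, and p-values were adjusted over the whole table by Benjamini and Hochberg's method, with calls at 0.05. The fit was also run on simulated data, with independent noise per gene, the same SD in both groups and no library trend. That run cannot show how length slopes or genes at 0 affect the calls. Transcript lengths came from GENCODE M 21 and covered 96.1% of genes, and lowess trends used a span of 0.3. Correlations used 100000 permutations, or all 362880 for 9 embryos. Library totals, where the read step could be told, were 12.1 to 46.1 M counts, above the 4.2 M reads in the labels, a difference not resolved.

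The members and lists were chosen with earlier results of these data known. Named were all members, up to 3 called genes per pathway list and the 5 genes most like 2 patterns. Alternatives were a replicate block, quantile and median-of-ratios scaling, a pseudocount of 16, filters, library weights, a covariate (genes above 0), trend removal, an exact permutation test and left-out libraries. The trend on the longest transcript was added after seeing the data. Same-numbered libraries of the groups share no stated animal or litter.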

Additional observations from a re-analysis of the deposited data

Results flagged for a closer look

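Mcm3 in Control 5 was 11.2, far below the nearest Control embryo at 12.2. It was the only such sample among the 20 sets of values examined (10 genes in 2 groups), and chance gives about 1 in 20. Without Control 5 the log2 fold change of Mcm3 was -0.79 (limma adjusted p = 0.00618).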

How the results depend on the processing

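With a replicate block on the numbers 2 to 10, which leaves out Control 1, 2 of the 10 genes were lower (Cdc6 and Mcm10), and Mcm3 (-0.59, adjusted p = 0.122), Mcm4 (-0.49, adjusted p = 0.111) and Mcm6 (-0.62, adjusted p = 0.0527) no longer passed, with 987 of all genes lower. No pairing by number is stated, and little showed in correlations of deviations over all genes. Of 9 same-numbered pairs 1 had a correlation over 0.1 (range -0.07 to 0.15), and 1 mutant correlated best with its own number. A shared litter need not show in such correlations, so they cannot exclude a pairing. With the count of genes above 0 as a covariate 1 of the 10 was lower, and Mcm3 (-0.46), Mcm4 (-0.51), Mcm6 (-0.50) and Cdc6 (-0.45) did not pass, with 1807 of all genes changed, 1308 higher and 499 lower. Without the 4 libraries with over 400 genes at 0, 1 was lower, with Mcm3 at -0.52, Mcm4 at -0.59, Mcm6 at -0.60 and Cdc6 at -0.56 not passing and 941 of all genes lower. With the length and GC trend removed 3 were lower, and Mcm3 (-0.36) and Mcm4 (-0.49) did not pass while Gmnn turned to -0.22. With the longest transcript 1 was lower, and Mcm3 (-0.39), Mcm4 (-0.52), Mcm6 (-0.57) and Cdc6 (-0.47) did not pass while Gmnn turned to -0.016. By the exact permutation test 3 were lower, with Mcm3 (-0.65, adjusted p = 0.0643) and Mcm4 (-0.56, adjusted p = 0.0521) not passing. With library weights all 10 passed, 9 lower and 1 higher, with Mcm2 at -0.82, Mcm5 at -0.84, Mcm7 at -0.45, Cdt1 at -0.66 and Gmnn at 0.89, and 2689 of all genes lower. Over genes above the median level Mcm2 (-0.64) and Gmnn (0.70) passed, with 1 of the 10 higher and 1242 of all genes higher. Under quantile normalization Mcm2 (-0.74) and Mcm7 (-0.50) passed. Mcm10 passed in each of these fits. Other than where values are given here, the cause was not tested.

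Leaving out 1 library at a time gave 3 to 9 of the 10 genes changed, 3 to 8 lower and 0 to 1 higher. Without Control 1, 2, 6 or 7 or Padi6-mutant 2, 7, 9 or 10, 3 were lower, and without Control 5, 8 were. For all genes 3035 to 4288 changed, 1811 to 2262 higher and 1224 to 2026 lower. The log2 fold changes ran from -0.78 to -0.54 (Mcm2), -0.79 to -0.54 (Mcm3), -0.63 to -0.49 (Mcm4), -0.70 to -0.47 (Mcm5), -0.81 to -0.62 (Mcm6), -0.49 to -0.36 (Mcm7), -0.78 to -0.64 (Mcm10), -0.76 to -0.57 (Cdc6), -0.66 to -0.42 (Cdt1) and 0.58 to 0.84 (Gmnn). The relation of Cdt1 with Gmnn kept its side of the threshold under the alternatives run. It was not run for the 5 mutants left without those with over 400 genes at 0.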
